A study of Mus musculus with 8 samples.

Results

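Metallothioneins and zinc handling were followed here through 5 genes, Mt1, Mt2, Mtf1, Slc30a1 and Slc30a8, out of 24421 in the count tables. The genes were taken by name from every table. The rule set no threshold on a value, but the family was chosen by measured values, namely earlier results of the same cells that included the UMI levels of Mt1 in β-cells of the control and PPTx groups, so the tests below are not independent of that choice. Pancreatic islets of male C57BL/6J mice aged 8 weeks were dissociated and their single cells sequenced in 8 samples. The control group (4 samples) had no operation, and the PPTx group (4 samples) had undergone partial pancreatectomy, the removal of 50% of the pancreas, 2 days before islet isolation. The labels and methods name no transgene, the PPTx mice alone had isoflurane anaesthesia for the operation, and each sample pooled islets of 1 to 3 mice. The splenic side of the pancreas was removed and the control mice had no sham operation, so surgery, anaesthesia, time after it and the region the islets came from cannot be told apart.

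Zinc is packed with insulin in the secretory granules of β-cells, where it crystallizes the hormone, and it is released with insulin into the islet. Slc30a8 encodes ZnT8, the transporter that loads zinc into those granules. Slc30a1 encodes ZnT1, which exports zinc across the plasma membrane. Mt1 and Mt2 encode metallothioneins, small cysteine-rich proteins that bind zinc and copper in the cytosol. Mtf1 encodes the zinc-sensing transcription factor that acts on Mt1, Mt2 and Slc30a1 through metal response elements. Metallothionein genes are also induced by glucocorticoids and by oxidative stress.

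Mt2 and Mt1 lie next to each other on mouse chromosome 8 (mm10), Mt2 at chr8:94172618-94173567 and Mt1 at chr8:94178883-94180327, so that the Mt1 record starts 5316 bases after the end of Mt2. Slc30a1 is at chr1:191906697-191913248, Mtf1 at chr4:124802549-124849800 and Slc30a8 at chr15:52295553-52335798. Since Mt1 and Mt2 moved together in these cells, the 250 bases before the start site were searched for the core of the metal response element, spelled TGCACNC or TGCGCNC, on both strands. Mt2 held 3 matches, Mt1 and Slc30a1 held 1 each and Mtf1 held none. The Mt1 window had 44 of its bases before the gene record and the Slc30a1 window 166, and both of their matches lay inside the record, so these are not counts over the sequence before the gene. Of 32851 promoters of this length, 21.4% held at least 1 match and 1.26% held at least 3, so a single match was common. The Mt2 promoter is printed whole because its window lies entirely before the gene record, and the other matches with their neighbouring bases. Capitals mark the matches, on the strand of the gene from 5′ to 3′, from RefSeq on GRCm38.p6 (mm10):
Mt2, chr8:94172368-94172617, plus strand: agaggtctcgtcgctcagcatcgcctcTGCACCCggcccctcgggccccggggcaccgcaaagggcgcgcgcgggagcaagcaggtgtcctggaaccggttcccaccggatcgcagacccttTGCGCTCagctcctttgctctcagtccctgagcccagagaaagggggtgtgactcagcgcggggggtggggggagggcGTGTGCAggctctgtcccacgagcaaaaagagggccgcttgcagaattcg
Mt1, chr8:94179055-94179084, plus strand: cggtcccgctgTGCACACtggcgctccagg
Slc30a1, chr1:191906727-191906756, plus strand: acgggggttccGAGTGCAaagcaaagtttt
The capitals GTGTGCA and GAGTGCA are TGCACAC and TGCACTC read on the opposite strand. The matches describe letters in these windows only, and a window depends on the start site the annotation gives.

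The cells were put into 4 classes by their most abundant hormone RNA among insulin (Ins1 and Ins2), Gcg, Sst and Ppy, which gave 958 β-cells, 121 α-cells, 16 δ-cells and 137 PP cells. The samples held 65 to 294 cells after filtering, and the deposited tables held 236645 to 1580152 unique molecular identifiers (UMIs, each counting 1 captured RNA molecule). Markers that are no hormones followed most names: as CPM of non-hormone UMIs, G6pc2 stood at 4802 in β-cells against 177 to 316 in the other classes, Irx1 at 260 in α-cells against 1.501 to 31.6, and Cd24a at 1424 in δ-cells against 0 to 20.8. Mafa, a β-cell regulator, was near 0 in β-cells too (0.751), so its zeros in the other classes carry no information. The δ class was the least clear, since in 10 of its 16 cells Sst held under 80% of the hormone UMIs. Over all β-cells endothelial markers summed to 3.43, acinar markers to 18.7, immune markers to 22.3, stellate markers to 71.1 and ductal markers to 192 CPM (counts per 1000000 UMIs), with Pecam1, Cdh5, Cd3e and Cftr at 0. PPTx samples held fewer α-cells (1.27% to 5.93% of cells, against 9.23% to 28.3%) and more PP cells (12.03% to 15.6%, against 3.08% to 8.82%), and 1 barcode occurred in more than 1 sample.

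In β-cells, both metallothionein genes fell after PPTx. Mtf1 and Slc30a8 did not pass the same test, and Slc30a1 had too few counts for it and was compared by an exact test. Levels are given as CPM of all UMIs summed over the β-cells of a sample. Mt1 stood at 683, 572, 305 and 448 CPM in control replicates 1 to 4 and at 222, 155, 229 and 279 CPM in PPTx replicates 1 to 4. All 4 PPTx samples were below all 4 control samples, and the control samples were spread more widely. Group means were 502 ± 163 CPM (SD, n = 4) for control and 221 ± 50.9 CPM (SD, n = 4) for PPTx, a ratio of 0.441. By edgeR's quasi-likelihood test the log2 fold change of Mt1 was -1.23 (adjusted p = 0.0128, standard error 0.22).

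Mt2 showed the same order of groups at lower levels. Its values were 309, 203, 128 and 158 CPM in control replicates 1 to 4 and 77.0, 44.4, 94.5 and 109 CPM in PPTx replicates 1 to 4. The groups again did not overlap, with means of 200 ± 79.1 CPM (SD, n = 4) and 81.3 ± 27.9 CPM (SD, n = 4), a ratio of 0.407. Its log2 fold change was -1.32 (edgeR adjusted p = 0.0288, standard error 0.26). edgeR called 19 of 5931 genes in this comparison, 0.32% of those tested, of which 8 (0.135%) were lower, and Mt1 and Mt2 were 2 of these 8.

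**Figure D1:**
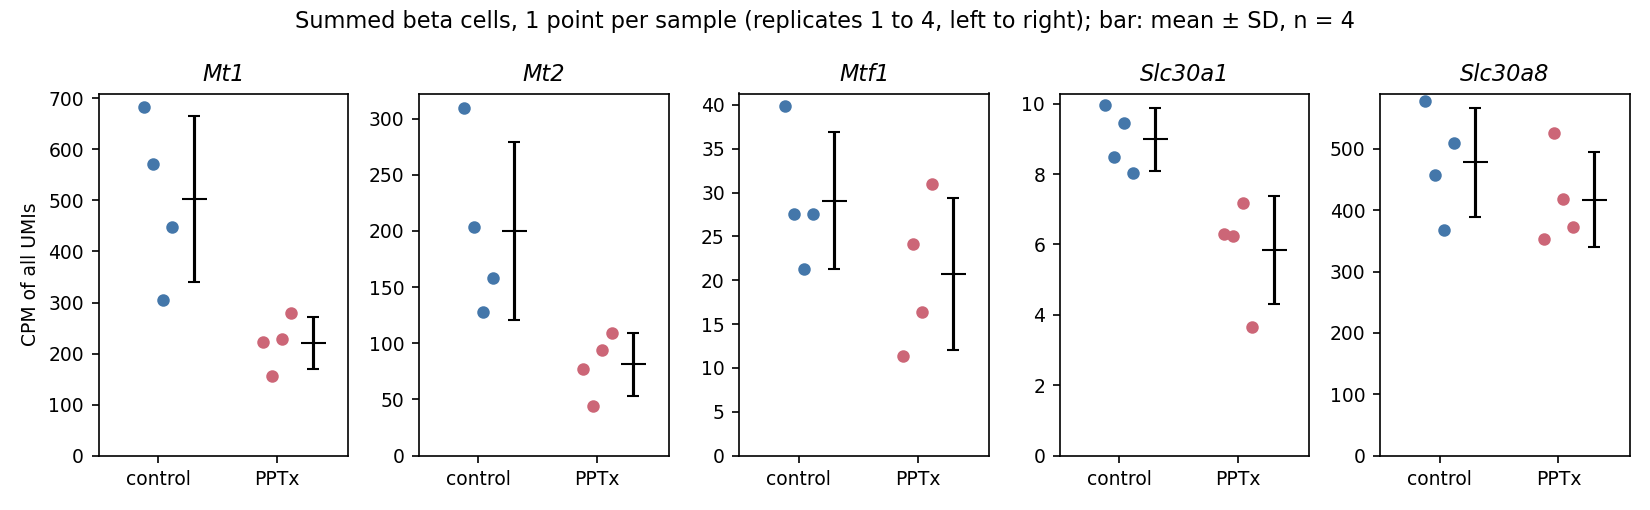
CPM of all UMIs of each member in the summed β-cells of every sample, control replicates 1 to 4 in blue and PPTx replicates 1 to 4 in red, with the group mean and SD (n = 4) in black. Mt1 and Mt2 are separated between the groups, from 305 to 683 against 155 to 279 CPM for Mt1, while Mtf1 and Slc30a8 overlap.

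Both calls rested on several of the libraries. Leaving out control replicate 1, control replicate 2 or PPTx replicate 1 raised the edgeR adjusted p to 0.0907, 0.112 and 0.0771 for Mt1 and to 0.122, 0.138 and 0.131 for Mt2, and for Mt2 leaving out PPTx replicate 3 gave 0.0539. Control replicates 1 and 2 had the highest Mt1 levels. Without both, a setting chosen after seeing the data, the fall was 0.89 for Mt1 (adjusted p = 0.459) and 0.97 for Mt2 (adjusted p = 0.532). The direction was a fall in all 19 alternatives, from -1.40 to -0.89 for Mt1 and from -1.55 to -0.97 for Mt2.

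**Figure D2:**
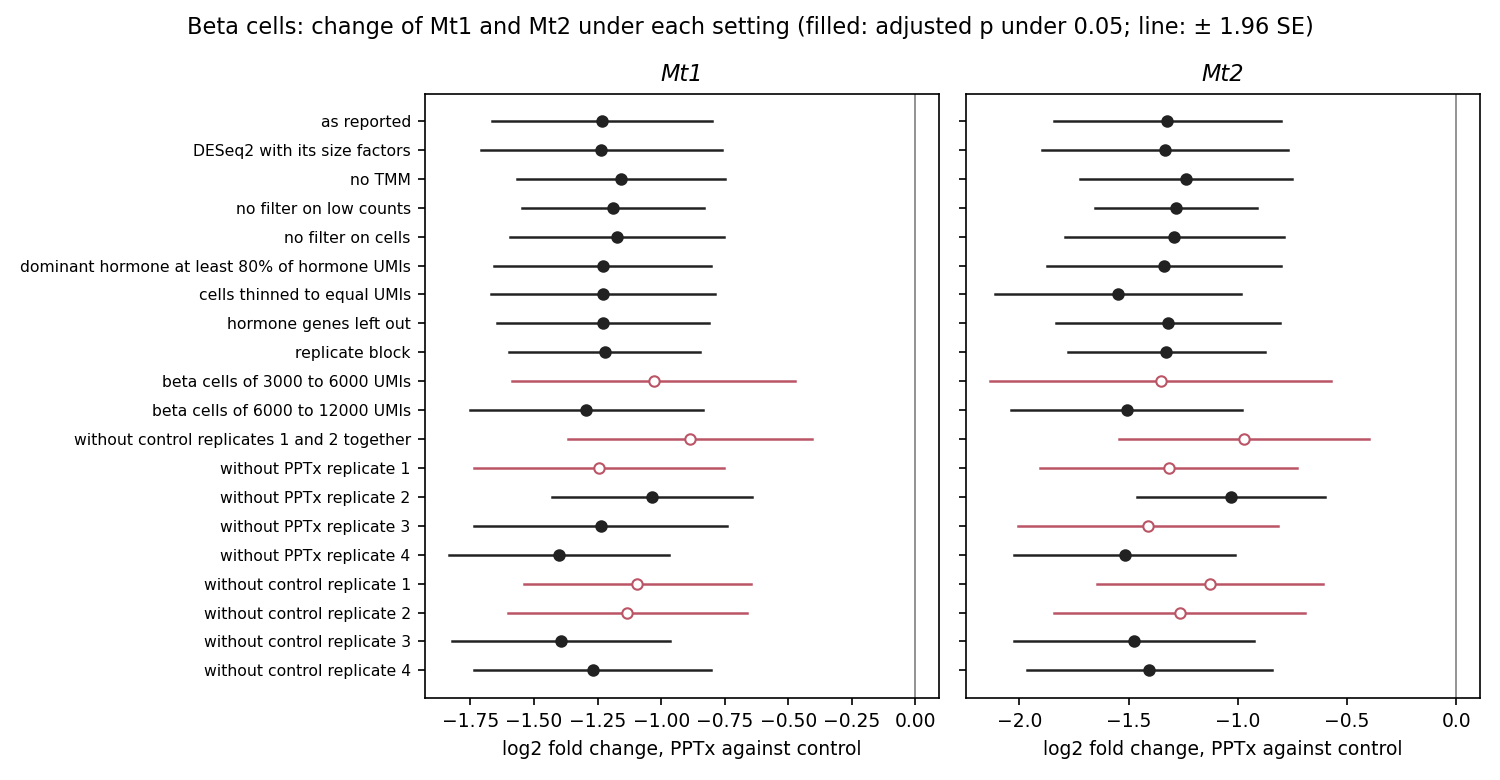
Log2 fold change of Mt1 and Mt2 between PPTx and control β-cells under each setting, with lines for the 95% interval. Filled points passed an adjusted p of 0.05. Every point lies below 0, and open points show the settings in which the call was lost.

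The share of β-cells with the transcripts fell as well. Cells were thinned to 2700 UMIs each so that shares could be compared at equal depth, which left out 26 control and 69 PPTx β-cells. A UMI of Mt1 was found in 68.2%, 54.7%, 41.9% and 43.0% of control β-cells and in 35.7%, 28.9%, 38.8% and 38.7% of PPTx β-cells in replicates 1 to 4. The groups did not overlap (exact permutation test, two-sided p = 0.029, the smallest that 4 against 4 samples allow). For Mt2 the shares were 45.5%, 30.7%, 20.5% and 21.9% in control and 12.2%, 9.95%, 20.4% and 16.2% in PPTx, also without overlap (exact permutation p = 0.029). However, control replicate 3 (20.51%) and PPTx replicate 3 (20.39%) nearly met. Thinning was a single random draw, and another draw could make these 2 samples overlap. The shares come from the same UMIs as the levels above. How many of all genes were separated in thinned cells was not counted. Before thinning, Mt1 was found in 61.0% to 81.8% of control and 44.4% to 65.4% of PPTx β-cells, and these ranges overlapped.

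Depth differed between samples. Median UMIs per β-cell were 3494, 5505, 10378 and 7132.5 in control replicates 1 to 4 and 7834.5, 5167, 9583.5 and 3660 in PPTx replicates 1 to 4, so that both groups covered a similar range. The control and the PPTx library with the shallowest β-cells also had the highest Mt1 level of their group. Among β-cells of 6000 to 12000 UMIs, Mt1 fell by 1.29 and Mt2 by 1.51 on the log2 scale (edgeR adjusted p = 0.00849 for each). Among those of 3000 to 6000 UMIs the log2 fold changes were -1.03 (adjusted p = 0.226) and -1.35 (adjusted p = 0.251). These bands were chosen after seeing the data.

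RNA of other islet cells was also counted in the same β-cells. Ppy stood at 1653 ± 2237 CPM (SD, n = 4) in control and 3548 ± 1629 CPM (SD, n = 4) in PPTx β-cells, and its ranges overlapped widely (149 to 4975 against 2455 to 5971 CPM). Pyy stood at 489 ± 254 against 1506 ± 629 CPM (SD, n = 4 each) without overlap. Ttr stood at 1468 ± 188 against 1982 ± 211 CPM (SD, n = 4 each) and Gcg at 469 ± 486 against 630 ± 799 CPM (SD, n = 4 each), both with overlap. Summed over the 4 PP markers, β-cells of control samples held 294 to 5618 CPM and those of PPTx samples 3300 to 7525 CPM, with none of the markers at 0. Restricting the classes to cells in which 1 hormone held at least 80% of hormone UMIs left the fall at 1.23 for Mt1 and 1.34 for Mt2 (edgeR adjusted p = 0.0124 and 0.0321). Stellate markers summed to 0 to 40.2 CPM in control and 1.03 to 272 CPM in PPTx β-cells, and acinar markers to 2.12 to 14.96 against 5.13 to 109 CPM. Their part in the result was not tested.

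Mtf1, the regulator, was a rare transcript. It was counted 145 times in all β-cells. Its level was 39.9, 27.5, 21.2 and 27.6 CPM in control replicates 1 to 4 and 11.4, 24.2, 16.4 and 31.0 CPM in PPTx replicates 1 to 4. The groups overlapped, with PPTx replicate 4 above 3 of the control samples. The share of β-cells with a UMI of Mtf1 did not overlap (12.7% to 19.5% in control and 8.82% to 12.5% in PPTx samples, exact permutation p = 0.029), but in cells thinned to 1 number of UMIs it did (means of 7.20% and 5.32%, exact permutation p = 0.314). The log2 fold change was -0.52 (standard error 0.30, 95% interval -1.11 to 0.07, edgeR adjusted p = 0.617). The Mt1 estimate of -1.23 lay outside this interval, but the 95% interval of Mt1 (-1.67 to -0.80) overlapped it. An equal fall of the 2 genes was thus not excluded.

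Slc30a1, the exporter, was rarer still and stayed below the count filter of edgeR. Control replicates 1 to 4 held 9.97, 8.47, 9.44 and 8.04 CPM and PPTx replicates 1 to 4 held 6.31, 6.24, 7.19 and 3.65 CPM. These values did not overlap (ratio of means 0.651, exact permutation p = 0.029, the smallest possible), but each rests on 2 to 12 UMIs. Pooled over samples, 25 UMIs gave 8.88 CPM in control (95% counting interval 5.75 to 13.1) and 22 UMIs gave 6.11 CPM in PPTx (3.83 to 9.26), and these intervals overlapped. In thinned cells the direction turned, to a log2 ratio of 0.14 (exact permutation p = 0.83). Of 8023 genes with a UMI in the β-cells of all 8 samples, 1.23% were lower in every PPTx sample than in every control sample, and Mt1, Mt2 and Slc30a1 were 3 of them, while 3.89% were higher in every PPTx sample and 5.12% were separated in either direction.

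Slc30a8 was the most often counted of the 5, with 2809 UMIs in all β-cells against 1936 of Mt1, and it did not separate the groups. It stood at 578, 457, 368 and 509 CPM in control replicates 1 to 4 and at 353, 526, 418 and 372 CPM in PPTx replicates 1 to 4. The lowest value was in PPTx and the highest in control, with a wide overlap between. As CPM of non-hormone UMIs the overlap was narrower. Control replicates 1 to 4 then held 1395, 1188, 997 and 1287 CPM, and PPTx replicates 1 to 4 held 853, 1082, 976 and 940 CPM. Only PPTx replicate 2 was above the lowest control sample (ratio of means 0.791, exact permutation p = 0.0571). The values that follow are again of all UMIs. Means were 478 ± 88.5 CPM (SD, n = 4) and 417 ± 77.5 CPM (SD, n = 4). The log2 fold change was -0.29 (standard error 0.15, 95% interval -0.59 to 0.01, edgeR adjusted p = 0.577).

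Across the 8 samples the levels of Mt1 and Mt2 in β-cells had the same order. Pearson's r of their log2 CPM was 0.979 (exact permutation p = 2.48e-05, the smallest 8 samples allow, adjusted p = 9.92e-05 over 4 relations) and Spearman's rho was 1 (exact permutation p = 4.96e-05, adjusted p = 0.000198). Without the 2 samples farthest from the median of Mt1, control replicates 1 and 2, r was 0.961. Since Mt1 did not overlap between the groups, part of this relation is the difference between control and PPTx, and no correlation is given within groups of 4 samples. The order was the same within each group as well. The relation of Mt1 with Slc30a8 was weaker (r = 0.421, exact permutation p = 0.288, adjusted p = 0.288; rho = 0.381, p = 0.360, adjusted p = 0.360) and vanished without those samples (r = -0.05). With Mtf1, r was 0.629 (exact permutation p = 0.0917, adjusted p = 0.183) and rho 0.667 (p = 0.0831, adjusted p = 0.111), and r fell to 0.353 without the same samples. With Slc30a1, r was 0.537 (exact permutation p = 0.169, adjusted p = 0.225) and rho 0.786 (p = 0.0279, adjusted p = 0.0559), and r fell to 0.256.

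Metallothionein RNA was unevenly spread among β-cells of the same sample, and the variance relative to the mean was higher for Mt1 and for Mt2 than for Slc30a8 in all 8 samples. In thinned cells the variance of Mt1 was 1.39 to 4.55 times its mean (median 2.14 over 8 samples) and that of Mt2 was 1.28 to 2.58 times its mean. For Slc30a8 this ratio was 0.946 to 1.54 (median 1.11), where 1 is the value of random sampling from equal cells. Across samples the ranges overlapped, since the Slc30a8 ratio of PPTx replicate 3 was above the lowest ratios of Mt1 and Mt2. Cells with at least 3 UMIs of Mt1 made up 29.5%, 18.7%, 15.4% and 16.7% of control and 6.12%, 1.49%, 8.74% and 9.91% of PPTx β-cells in replicates 1 to 4. These cells were thus fewer in every PPTx sample than in any control sample.

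Mt1 and Mt2 were found in the same β-cells. Spearman's rho between their UMIs across thinned cells was 0.431 as the median over 8 samples (0.294 to 0.587), a description over 863 cells of those libraries. Of 518 cells without a UMI of Mt1, 6.56% had a UMI of Mt2, against 29.0% of 252 cells with 1 to 2 UMIs and 60.2% of 93 cells with at least 3. The step was present in both groups: in cells with at least 3 UMIs of Mt1, Mt2 was found in 64.1% of 64 control and 51.7% of 29 PPTx cells. Slc30a8 did not follow them, with a median rho to Mt1 of -0.00023 (-0.0730 to 0.247) and a UMI in 67.0%, 66.3% and 64.5% of the same 3 sets of cells.

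**Figure D3:**
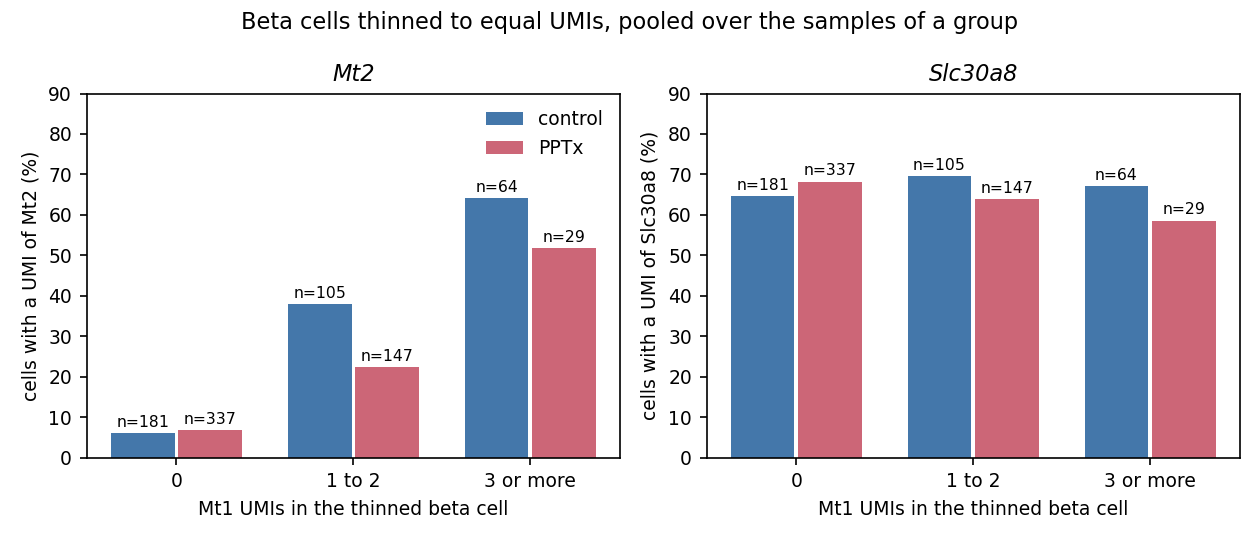
Percent of thinned β-cells with at least 1 UMI of Mt2 (left) or Slc30a8 (right) among cells with 0, 1 to 2 or at least 3 UMIs of Mt1, control in blue and PPTx in red, pooled over the samples of a group with the number of cells above each bar. Mt2 rises with Mt1 in both groups, from 6.08% to 64.1% in control, and Slc30a8 stays between 58.6% and 69.5%.

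The genes most like Mt1 across thinned β-cells, among 2082 genes with a UMI in at least 10% of them, were Mt2 and then Ftl1 (mean rho 0.243 over 8 samples), Fth1 (0.175), Rap1gap2 (0.174), Glg1 (0.159) and Stard10 (0.143). Ftl1 and Fth1 encode the subunits of ferritin, the iron store of the cell. Apart from Mt2 these correlations were weak. At the other end of the list was Ins1 (mean rho -0.271), and thinned Mt1 counts had a median rho of -0.116 with the number of UMIs of the cell.

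Metallothionein transcripts were higher in β-cells with replication markers. A β-cell was counted as such with at least 2 UMIs of 10 genes of the S, G2 and M phases (Birc5, Ccna2, Cdca8, Cdk1, Cenpa, Mki67, Nusap1, Top2a, Tpx2 and Ube2c). This gave 41 cells, 10 in control and 31 in PPTx samples, present in all 8 samples. In control replicates 1 to 4 these cells held Mt1 at 1940, 2109, 632 and 2807 CPM, against 670, 550, 293 and 383 CPM in the other β-cells. In PPTx replicates 1 to 4 they held 212, 275, 247 and 785 CPM, against 223, 147, 227 and 268 CPM. Mt1 was thus higher in 7 of 8 samples, by 781 ± 882 CPM on average (SD, n = 8, exact sign flips, two-sided p = 0.0156).

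The values in control rest on few cells: control replicates 1 and 2 had 1 marker-positive cell each, and in control replicate 4 a single cell gave 44 of the 65 Mt1 UMIs. In PPTx replicates 1 to 4, a single cell gave 5 of 11, 10 of 22, 4 of 21 and 7 of 9 Mt1 UMIs. Without control replicate 4 the mean difference was 546 CPM (exact sign flips p = 0.0312). Mt2 was higher in the marker-positive cells of 8 of 8 samples, by 367 ± 380 CPM (SD, n = 8, exact sign flips p = 0.00781, the smallest that 8 samples allow). These Mt2 sums also rest on single cells. In control replicates 3 and 4, 1 cell gave 11 of 11 and 14 of 27 Mt2 UMIs. In PPTx replicates 1 to 4, 1 cell gave 9 of 10, 8 of 11, 3 of 10 and 2 of 3. The order of the samples without these cells was not tested. Over pooled cells the differences were smaller: Mt1 stood at 572 CPM in marker-positive cells and 288 CPM in the others (ratio 1.98, 95% counting interval 1.69 to 2.32, or 1.38 where 1 marker UMI was enough), and Mt2 at 261 and 106 CPM (ratio 2.46, 95% counting interval 1.92 to 3.11). The counting intervals in this paragraph cover counting error only and leave out the spread among cells and samples. The mean over samples gives the control sums of 1 to 4 cells the same weight as the PPTx sums of 3 to 15 cells. Of 8019 genes with a UMI in β-cells of all samples, 2.02% rose by the same test and 14.7% were lower. Mtf1 had 1 UMI in the marker-positive cells and 144 in the others, which as CPM came to 0.139 times the level of the others (95% counting interval 0.00348 to 0.784). Where 1 marker UMI was enough, it had 7 and 138 UMIs, a ratio of 0.599 (95% counting interval 0.237 to 1.27). That interval holds both lower and higher levels. With at least 2 marker UMIs, Slc30a1 had 1 and 46 UMIs, or 0.434 times the level (95% counting interval 0.0107 to 2.54), an interval that also holds both. By sample, Mtf1 (exact sign flips p = 0.0156) and Slc30a1 (exact sign flips p = 0.0234) were each lower in 7 of 8. These 7 are the samples whose marker-positive cells held 0 UMIs of the gene, and a sum of 0 counts as lower however few UMIs it was drawn from. Slc30a8 stood at 461 CPM in pooled marker-positive cells and 437 CPM in the others, a ratio of 1.05 (95% counting interval 0.884 to 1.25). Averaged over samples the sign was the opposite, at 405 against 447 CPM (mean difference -41.8 CPM, exact sign flips p = 0.680), although it was higher in 5 of 8 samples. Marker-positive cells had a median of 6638 UMIs and the others 6017, and hormones made up 53.9% and 58.7% of their UMIs.

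**Figure D4:**
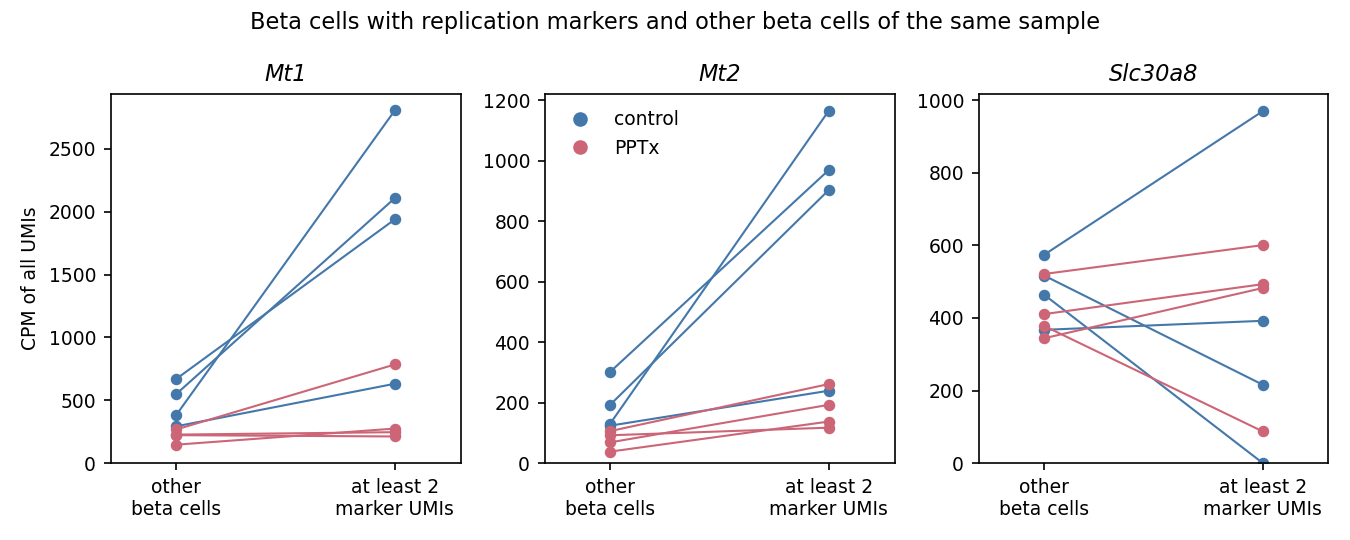
CPM of all UMIs of Mt1, Mt2 and Slc30a8 in β-cells with at least 2 UMIs of the replication markers and in the other β-cells of the same sample, joined by a line per sample, control in blue and PPTx in red. Mt1 rises in 7 of 8 and Mt2 in 8 of 8 samples, and the steepest lines are control samples with 1 to 4 such cells. In control replicate 3 and PPTx replicates 1 and 2, 1 cell gave 11 of 11, 9 of 10 and 8 of 11 Mt2 UMIs.

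Between cell classes the members separated into different patterns. For these comparisons hormone UMIs were left out, since they set the classes, and levels are CPM of the remaining UMIs. Sums of fewer than 5 cells were not used. Of the 3 members edgeR could test, Mt1 and Mt2 were lower in α-cells than in β-cells, and in PP cells Slc30a8 was lower and Mt2 higher. At this threshold 26% of 3880 genes were called between α- and β-cells (16.1% lower and 9.95% higher in α-cells) and 25.6% between PP and β-cells (14.4% lower and 11.2% higher in PP cells), so a call between classes was common.

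Mt1 was low in α-cells. It stood at 247, 45.6, 204 and 126 CPM of non-hormone UMIs in α-cells of control replicates 1 to 4, where β-cells of the same samples held 1648, 1485, 826 and 1133 CPM. In PPTx replicates 2 and 3, the PPTx samples with at least 5 α-cells, α-cells held 683 and 111 CPM and β-cells 319 and 535 CPM. PPTx replicate 2 alone went the other way, and 15 of its 19 Mt1 UMIs came from 1 cell. Between α- and β-cells the log2 fold change was -2.03 (standard error 0.22, edgeR adjusted p = 1.28e-18), while exact sign flips over the 6 samples gave p = 0.0625 (lower in 5 of 6). With cells of at least 80% dominance, Mt1 was lower in α-cells in 5 of 5 samples (exact sign flips p = 0.0625, the smallest that 5 samples allow). PPTx replicate 2 was not among these 5, since it kept 4 such α-cells and at least 5 were asked for.

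Mt2 was also lower in α-cells, at 371, 182, 39.2 and 108 CPM of non-hormone UMIs in control replicates 1 to 4 and 287 and 111 CPM in PPTx replicates 2 and 3. The α values were below those of β-cells in 5 of 6 samples, PPTx replicate 2 being the exception. The log2 fold change was -1.62 (standard error 0.28, edgeR adjusted p = 1.41e-07, exact sign flips p = 0.0938). RNA free in the droplets can add molecules of β-cells to other cells. At the ratio of Mt1 to insulin RNA in β-cells, the insulin UMIs in α-cells would bring 2.83 of the 58 Mt1 UMIs counted there.

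PP cells resembled β-cells in Mt1 and stood above them in Mt2. Mt1 was at 1241, 998 and 444 CPM of non-hormone UMIs in PP cells of control replicates 2 to 4 and at 851, 478, 427 and 559 CPM in PPTx replicates 1 to 4. These were above β-cells of the same sample in 3 of 7 samples (log2 fold change 0.03, 95% interval -0.27 to 0.32, edgeR adjusted p = 0.931), and the sign turned under 8 of 16 alternatives. Mt2 was at 980, 619 and 444 CPM in the same control replicates and at 519, 282, 324 and 98.6 CPM in the PPTx replicates, above β-cells in 6 of 7 samples, with PPTx replicate 4 below. Its log2 fold change was 0.88 (standard error 0.18, edgeR adjusted p = 9.72e-06), but the call was lost with DESeq2 (log2 fold change 0.76, adjusted p = 0.112) and exact sign flips gave p = 0.0781. Over all cells of a class, β-cells held 729 UMIs of Mt2 and 1936 of Mt1, and PP cells 165 of Mt2 and 246 of Mt1.

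Slc30a8 was an RNA of β- and α-cells. In α-cells it stood at 1361, 1186, 1027 and 811 CPM of non-hormone UMIs in control replicates 1 to 4 and at 1078 and 627 CPM in PPTx replicates 2 and 3. β-cells of the same samples held 1395, 1188, 997 and 1287 CPM and 1082 and 976 CPM. The ranges overlapped, but α-cells of control replicate 4 and PPTx replicate 3 were below the β-cells of all 6 samples. The log2 fold change was -0.39 (standard error 0.16, 95% interval -0.71 to -0.07, edgeR adjusted p = 0.0655, exact sign flips p = 0.156, lower in 5 of 6 samples). It passed the threshold under 4 of 16 alternatives, without a count filter (-0.67, adjusted p = 0.00648), without a cell filter (-0.41, adjusted p = 0.0356), in thinned cells (-0.66, adjusted p = 0.0127) and without control replicate 3 (-0.50, adjusted p = 0.0449). By the same reckoning free RNA would bring 4.37 of the 275 Slc30a8 UMIs in α-cells.

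In PP cells Slc30a8 fell to 32.7, 482 and 148 CPM of non-hormone UMIs in control replicates 2 to 4 and 57.7, 213, 51.2 and 263 CPM in PPTx replicates 1 to 4. Every PP value was below every β-cell value, the nearest being 482 against 853 CPM. The log2 fold change was -2.58 (standard error 0.20, edgeR adjusted p = 1.45e-36, exact sign flips p = 0.0156, lower in 7 of 7 samples, the smallest p that 7 allow). Insulin RNA in these cells would bring 7.34 of the 62 Slc30a8 UMIs counted. A UMI of Slc30a8 was found in 84.7% of β-cells (95% Clopper-Pearson interval 82.2% to 86.9%), 80.2% of α-cells (71.9% to 86.9%) and 26.3% of PP cells (19.1% to 34.5%), at median depths of 6062, 4004 and 5188 UMIs per cell. Intervals here cover counting error only.

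**Figure D5:**
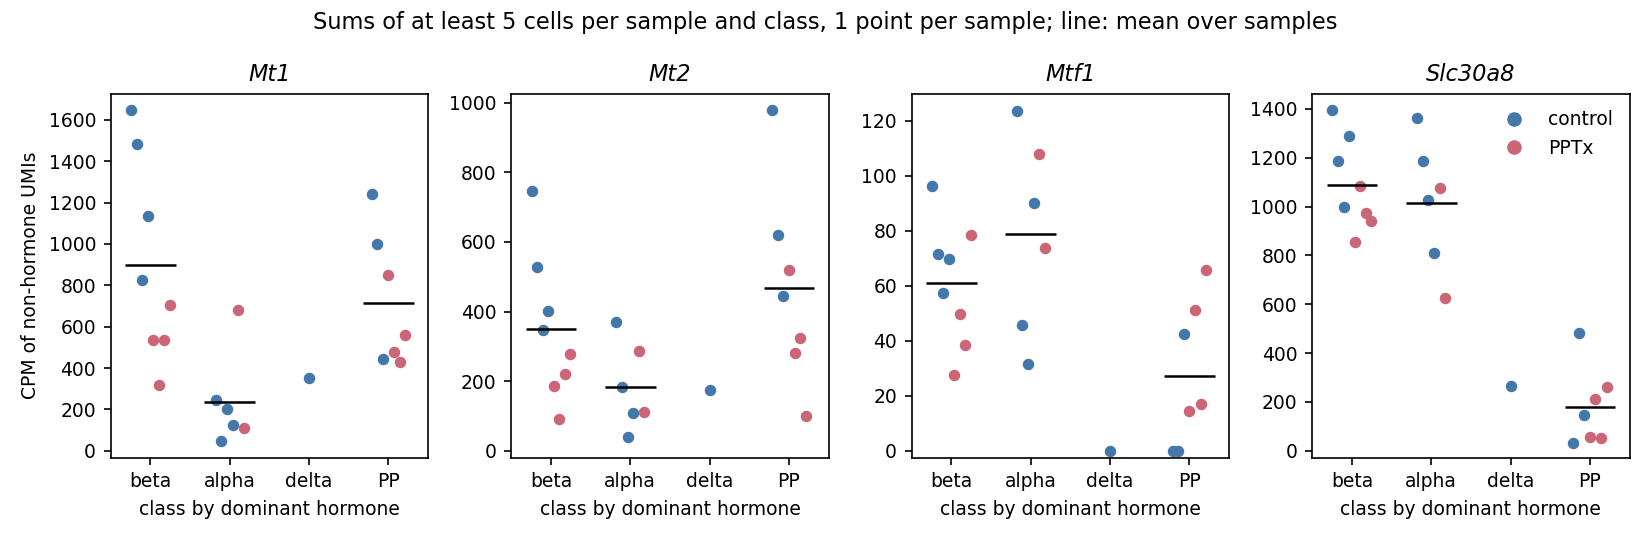
CPM of non-hormone UMIs of Mt1, Mt2, Mtf1 and Slc30a8 by cell class, 1 point per sample with at least 5 cells of the class, control in blue and PPTx in red, and a line at the mean over samples. Mt1 is low in α-cells except in PPTx replicate 2 at 683 CPM, and Slc30a8 is low in PP cells, all of which lie at or below 482 CPM.

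Mtf1 and Slc30a1 were too rare for edgeR between classes. Mtf1 averaged 78.7 ± 35.7 CPM of non-hormone UMIs (SD, n = 6) in α-cells and 63.8 ± 20.2 CPM in β-cells of the same samples (exact sign flips p = 0.312, higher in 4 of 6). In PP cells it averaged 27.2 ± 25.9 CPM (SD, n = 7) against 56.1 ± 18.7 CPM in β-cells, lower in 6 of 7 samples (exact sign flips p = 0.0312), on 12 UMIs in all PP cells. The PP sums of control replicates 2 and 3 held 0 UMIs of Mtf1. Such a sum counts as lower however few UMIs it was drawn from. Slc30a1 was counted 4 times in α-cells and 7 times in PP cells, and the difference from β-cells was not detectable at this depth (exact sign flips p = 0.438 and 0.562). The PPTx effect in δ-cells was not tested, since of the 16 δ-cells 5 came from control replicate 4, the only sample with enough for a sum. It held 4 UMIs of Mt1, 2 of Mt2 and 3 of Slc30a8, and over all δ-cells Slc30a1 was at 0 of 49283 UMIs, for which 3 counts allow up to 60.9 CPM.

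The order of the classes was read within each group, since the metallothioneins differed between control and PPTx. In control samples Mt1 ran β (1273 ± 367 CPM of non-hormone UMIs, SD, n = 4), PP (894 ± 408, n = 3) and α (156 ± 88.9, n = 4), and in PPTx samples PP (579 ± 189, n = 4), β (524 ± 158, n = 4) and α (397 ± 404, n = 2). The order of β and PP turned between the groups, within their spread. Mt2 ran PP (681 ± 273, SD, n = 3), β (505 ± 177, n = 4) and α (175 ± 143, n = 4) in control, and PP (306 ± 173, n = 4), α (199 ± 125, n = 2) and β (194 ± 77.7, n = 4) in PPTx. Slc30a8 ran β (1217 ± 169, SD, n = 4), α (1096 ± 234, n = 4) and PP (221 ± 233, n = 3) in control, and β (963 ± 94.8, n = 4), α (853 ± 319, n = 2) and PP (146 ± 108, n = 4) in PPTx, so that PP was lowest in both. The genes most like Slc30a8 over the 22 sums of sample and class, by Pearson's r of log2(CPM + 1), were Uqcc2 (0.798), Tubg1 (0.768), Slc25a3 (0.758), Pdha1 (0.750) and Insrr (0.750), a description over sums that share libraries and differ in depth.

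The change after PPTx in the smaller classes was measured with less precision. In PP cells Mt1 stood at 598, 497 and 225 CPM of all UMIs in control replicates 2 to 4 and at 439, 250, 201 and 291 CPM in PPTx replicates 1 to 4. The groups overlapped, and the log2 fold change was -0.59 (standard error 0.33, 95% interval -1.25 to 0.06, edgeR adjusted p = 0.814). Mt2 was at 472, 309 and 225 CPM in control and at 268, 147, 153 and 51.3 CPM in PPTx, with PPTx replicate 1 above the lowest control sample. Its log2 fold change was -1.04 (standard error 0.37, 95% interval -1.76 to -0.32, edgeR adjusted p = 0.812). In the same sums RNAs of other classes, none of them called, had log2 fold changes of 2.18 (Iapp), 1.26 (Ins1), 1.18 (Ins2) and -2.56 (Sst), and over all PP cells the 9 β markers, of which Mafa was at 0, summed to 3808 to 10121 CPM in control and 8941 to 39880 CPM in PPTx samples. The part of this RNA in the level of Mt2 was not tested. For Slc30a8 it was -0.58 (standard error 0.64, adjusted p = 0.932), and this turned to 0.44 without control replicate 3. edgeR called 0 of 705 genes in PP cells (0%), DESeq2 also called 0, and 40 had an unadjusted p under 0.05.

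In α-cells only PPTx replicates 2 and 3 had at least 5 cells, and only Slc30a8 passed the count filter. It held 722, 647, 534 and 451 CPM of all UMIs in control replicates 1 to 4 and 589 and 362 CPM in PPTx replicates 2 and 3. The groups overlapped (log2 fold change -0.17, standard error 0.33, edgeR adjusted p = 0.946, 0.709% of 423 genes called). Mt1 rested on 36 UMIs in control and 22 in PPTx α-cells, and its mean level of 83.1 CPM in control and 218 CPM in PPTx samples lay in the opposite order to that in β-cells. The groups overlapped (exact permutation p = 0.267, where 4 against 2 samples cannot go below 0.0667), and 15 of the 22 UMIs came from 1 cell. As a mean over cells it was 92.3 against 232 CPM, and there the groups did not overlap (exact permutation p = 0.0667). The 3 genes called in this comparison were RNAs of other islet classes, Ppy, Pyy and Iapp, higher in PPTx α-cells by 1.75, 1.74 and 2.61 (log2, edgeR adjusted p = 0.000109, 0.000124 and 0.000124). Over all α-cells the 9 β markers, with Mafa and Pdx1 at 0, summed to 6441 to 15442 CPM in control and 4065 to 41903 CPM in PPTx samples. In α-cells of at least 80% dominance the Mt1 count of PPTx replicate 2 was 2 UMIs in place of 19, and that of PPTx replicate 3 was 0 in place of 3.

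The log2 fold change of the metallothioneins after PPTx was lower in β-cells than in the α-, δ- and PP cells summed together, by 1.72 for Mt1 (edgeR adjusted p = 7.48e-08, standard error 0.25) and 1.45 for Mt2 (standard error 0.30, adjusted p = 0.00121), among 9 of 5240 genes called (0.172%), of which 4 (0.0763%) had a positive and 5 (0.0954%) a negative difference. With DESeq2 the differences were 1.78 (adjusted p = 0.0880) and 1.37 (adjusted p = 0.908). Without PPTx replicate 1, PPTx replicate 2 or control replicate 3 the call for Mt2 was also lost (1.26, 1.15 and 1.18, edgeR adjusted p = 0.0776, 0.154 and 0.106). For Slc30a8 the difference was -0.87 (standard error 0.26, edgeR adjusted p = 0.208), which passed the threshold only without TMM scaling, 1 of 16 alternatives (-0.97, adjusted p = 0.0359). The summed cells changed their make-up between the groups, from 98 α- and 34 PP cells in control to 23 α- and 103 PP cells in PPTx. Mt1 was low in α-cells, and the part of this shift in the difference was not tested. Against PP cells alone, a setting chosen after seeing the data, the difference was 0.72 for Mt1 (standard error 0.27, 95% interval 0.20 to 1.25, edgeR adjusted p = 0.83) and 0.36 for Mt2 (standard error 0.32, 95% interval -0.26 to 0.99, adjusted p = 0.982), with 0.0402% of 4980 genes called and 0.0201% called with a positive difference. A difference between β-cells and PP cells thus did not pass the test.

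The other genes of zinc transport held no called gene in β-cells after PPTx. The list held 29 genes, the ZnT exporters (Slc30a1 to Slc30a10), the ZIP importers (Slc39a1 to Slc39a14), the 4 metallothioneins and Mtf1. Of its 24 genes outside the members, 11 had enough counts to be tested in β-cells, and 0 were called by edgeR (2 at an unadjusted p under 0.05) and 0 by DESeq2, which gave an adjusted p for 2 of them, with a median log2 fold change of 0.04 against -0.01 over all genes tested. Slc39a11 had the largest value among these 11, 0.94 (standard error 0.34, 95% interval 0.27 to 1.61, edgeR adjusted p = 0.356), and Slc30a7 had 0.52 (95% interval 0.05 to 0.99, adjusted p = 0.514). Over all genes tested, 553 of 5931 had an unadjusted p under 0.05 and 0.32% were called. The other metallothioneins, Mt3 and Mt4, were near or at 0 in every class.

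Between classes, 7 of those 24 genes were tested. Slc39a7, a ZIP transporter that releases zinc from the endoplasmic reticulum, was lower in α-cells (log2 fold change -1.25, standard error 0.25, edgeR adjusted p = 5.36e-06) and in PP cells (-0.97, standard error 0.20, adjusted p = 2.64e-05) than in β-cells. Slc39a11 was higher in α-cells (1.501, standard error 0.46, edgeR adjusted p = 0.00604), a call lost in thinned cells and without control replicate 3. Of the 7, 2 were called in α-cells and 1 in PP cells, beside 26% and 25.6% of all genes. Their median was -0.83 in α-cells, against -0.06 over all genes tested, and -0.16 in PP cells, against -0.03.

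Lists of genes that respond to the other known inducers of metallothioneins were set beside them. Of 11 genes of metal and oxidative stress, 8 were tested in β-cells after PPTx, and 0 were called by edgeR (1 at an unadjusted p under 0.05) and 0 by DESeq2, which gave an adjusted p for 5 of them (median log2 fold change -0.09), and Txn1, thioredoxin, had the smallest unadjusted p (log2 fold change 0.53, edgeR adjusted p = 0.275). Of 10 glucocorticoid targets, 7 were tested, and 0 were called by edgeR (1 at an unadjusted p under 0.05) while DESeq2 gave an adjusted p for 0 of them and an unadjusted p under 0.05 for 1 (median -0.08). Among these, Tsc22d3, which encodes the glucocorticoid-induced leucine zipper protein GILZ, had a log2 fold change of -0.998 (standard error 0.27, edgeR adjusted p = 0.151). The other targets tested were mixed. Per1 had -0.30, Fkbp5 -0.08 and Klf9 -0.08, while Dusp1 had 0.21, Cebpd 0.22 and Errfi1 0.52. The medians stood beside -0.01 over all genes tested.

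Between classes, 2 of 6 genes of metal and oxidative stress and 2 of 7 glucocorticoid targets were called in α-cells, and 3 of 6 and 1 of 7 in PP cells, beside 26% and 25.6% of all genes. Ftl1 was lower in α-cells (log2 fold change -1.63, standard error 0.17, edgeR adjusted p = 3.63e-19) and in PP cells (-1.45, adjusted p = 2.19e-19), and Fth1 was lower in both (-0.61, adjusted p = 0.00100, and -0.55, adjusted p = 0.000672). Prdx1, a peroxiredoxin, was higher in PP cells (0.50, edgeR adjusted p = 0.0131), a call lost under 5 of 16 alternatives. Dusp1, a phosphatase of stress kinases, was higher in both classes (1.52 in α- and 1.90 in PP cells, edgeR adjusted p = 8.39e-05 and 2.30e-10), and Fkbp5, a co-chaperone of the glucocorticoid receptor, was higher in α-cells (1.19, adjusted p = 0.000274). In thinned cells Dusp1 and Fkbp5 were no longer called in α-cells, nor Fth1 in PP cells.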

How the data were processed

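Islet cells of 8 samples were sequenced as 3' single-cell libraries, and the authors deposited for each sample a table of UMI counts of genes by cell, mapped to mm10 according to the submitters' processing notes, which also name bcl2fastq. The study's methods give filtering, debarcoding and counting of UMIs by Cell Ranger before deposit. No mitochondrial gene was in the tables. The limits the study states for cells, 100 to 3000 genes and 100 to 20000 counts, left 1232 of 1240 cells, which were classed by their most abundant hormone RNA, and their counts summed per sample and class where at least 5 cells were present. No doublet caller was run, and the share of the leading hormone was used to restrict the classes as an alternative. Sums were tested by edgeR 4.0.16 (quasi-likelihood test, TMM scaling, filterByExpr, Benjamini-Hochberg adjustment over all genes tested, threshold 0.05) in R 4.3.3, with all UMIs for PPTx against control and with non-hormone UMIs between classes. DESeq2 1.42.0 was an alternative. Single values were compared by exact permutation or exact sign flips, two-sided. Poisson and Clopper-Pearson intervals cover counting error only. Replicates are samples of pooled islets, 1 to 3 mice each. Neither PPTx against control in δ-cells nor δ- against β-cells was tested, with 1 sample holding 5 δ-cells. Other alternatives were no TMM, no count or cell filter, a leading hormone of at least 80%, thinned cells, hormone genes left out or kept, a replicate block and leaving out each sample.

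The members and lists were chosen with earlier results of these data known. Named genes were the 5 members, every called gene of the zinc, metal and oxidative stress and glucocorticoid lists (up to 4 per list and direction), and the 5 genes most like Mt1 and Slc30a8. Slc39a11, Slc30a7, Txn1 and the hormone and islet RNAs in α- and PP cells after PPTx were named after their values were seen. So were Tsc22d3 with the other glucocorticoid targets tested in β-cells after PPTx, and Ins1 by its likeness to Mt1. On simulated counts for PPTx against control in β-cells, 200 genes were changed by 1.5 (log2), and 99% of those tested were called. For PP against β-cells this share was 96.5% and for α- against β-cells 91.5%. Only well-counted genes were changed, which left out genes as rare as Mtf1 and Slc30a1. Every gene was given the same dispersion, so these shares hold for the simulation and not for the members. The next counts are again of PPTx against control in β-cells. In all, 208 of 6117 genes tested were called there. With nothing changed, 0 of 6144 were called.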

Additional observations from a re-analysis of the deposited data

Results flagged for a closer look

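Slc30a1 stood at 24.9 CPM in α-cells of control replicate 2, where the other 3 control samples were at 0. The value is 1 UMI, and a count of 0 in the other 3 allows up to 12.2 to 197 CPM (3 counts), so it does not set the sample apart from its group.

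The PPTx effect in α-, δ- and PP cells minus that in β-cells was 1.72 on the log2 scale for Mt1 (edgeR adjusted p = 7.48e-08) and 1.45 for Mt2 (edgeR adjusted p = 0.00121), a difference between cell classes. With DESeq2 neither passed the threshold (adjusted p = 0.0880 and 0.908), and Mt2 passed it in 5 of 8 fits that left out a sample (highest adjusted p = 0.154). The α-cells numbered 98 in control and 23 in PPTx and the PP cells 34 and 103, and the part of this shift in the difference was not tested. With PP cells alone the difference was 0.72 for Mt1 and 0.36 for Mt2, and neither passed the threshold.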

How the results depend on the processing

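Of 455 recomputed values, 387 kept their direction and side of the threshold (for counts, stayed within 1.5 times), 28 moved, 22 were no longer past the threshold, 6 came past it (5 of them Slc30a8) and 12 reversed. The cause was not tested, except where fewer genes or samples entered. Called genes after PPTx in β-cells numbered 19, against 96 without a count filter, 46 with the replicate block, 5 and 9 among cells of 3000 to 6000 and of 6000 to 12000 UMIs, 0 without control replicates 1 and 2 together (477 at an unadjusted p under 0.05), and 1 to 17 when single replicates were left out. In α-cells 3 were called, against 1 without a count filter, 6 at 80% dominance and 0 to 4 by leaving out replicates. In PP cells 0 were called, against 2 without a count filter, 1 at 80% dominance, 1 with hormones left out, 2 with the block and 0 to 1 by leaving out replicates. In thinned cells 492 genes were called between α- and β-cells, against 1009, and 487 between PP and β-cells, against 993, with fewer genes tested. The class difference of the PPTx effect had 9 calls, against 1 by DESeq2, 15 without TMM, 4 without a cell filter, 2 with PP cells alone and 3 to 13 by leaving out replicates. Bands of UMIs, PP cells alone and leaving out both controls were chosen after seeing the data.

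Mt1 after PPTx in β-cells lost its call at 3000 to 6000 UMIs (-1.03) and without both controls (-0.89), and ranged from -1.40 to -1.04 by leaving out replicates. For Mt2 these were -1.35, -0.97 and -1.52 to -1.03. Slc30a1 turned to 0.14 in thinned cells and ranged from -0.73 to -0.45 by leaving out replicates, and as a mean over cells its control level was 11.4 CPM. Mtf1 in cells with at least 1 replication marker UMI differed by -15.6 CPM (exact p = 0.0547), against -22.9 CPM, and Slc30a8 in marker-positive cells turned from -41.8 to 18.5 CPM without control replicate 2 (lowest -104.3 CPM). Mt1 in PP against β-cells turned to -0.092 with DESeq2, -0.13 without TMM, -0.27 without a count filter, -0.018 without a cell filter, and -0.13, -0.05, -0.01 and -0.02 without PPTx replicates 1 and 2 and control replicates 1 and 3, the highest value by leaving out replicates being 0.26. Slc30a8 after PPTx turned to 0.12 in α-cells without PPTx replicate 3 (lowest -0.53) and to 0.44 in PP cells without control replicate 3 (lowest -0.99).

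Same-numbered samples had correlations of deviations of 0.05, 0.04, 0.09 and 0.14, so the numbers were not taken to pair the samples. With the replicate block, Mt2 in PP cells had a log2 fold change of -1.56 (edgeR adjusted p = 0.0104). Without TMM the median log2 fold change over all genes was 0.13 in PPTx β-cells (85.2% of calls higher, against 57.9%) and -0.19 in PP against β-cells (29.6% higher, against 43.6%).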
